A study of Homo sapiens with 15 samples.

Results

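Interferon response and antigen processing genes are described here across 15 RNA sequencing libraries of HT115, an established human colorectal cancer line. The set is a list of 42 interferon-stimulated genes, all 42 of which were matched by Ensembl identifier to the 60671 genes of the count table. After edgeR's filter on low counts 39 of the 42 were tested, among 16160 genes in all. XAF1, IFI44L and TRIM22 did not pass the filter. Every library came from cells treated with doxycycline at 0.5 µg/ml for 24 h, which induced GFP as the control, wild-type SOX9 with a V5 tag (SOX9_WT), or a mutant SOX9 with the same tag (M228, M303 or M379), with 3 libraries in each of the 5 groups. M303 is a truncated SOX9 per the series text, and what M228 and M379 change is not stated in any source used here. Duplicates are mentioned in the series text where the labels give 3 replicates, and the labels do not say that these came from separate cultures or what a replicate number marks, so the p-values reflect only how these libraries vary, and that variation may be technical. Whether a line is 1 clone or a pool, and how the inducible gene was delivered, is not given either.

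By edgeR over all 15 libraries no tested member was called in a comparison between the 5 groups, while other settings called 1 or a few, mainly IFITM2 and IFI6. This fit holds no term for replicate number. With the number as a block 1 member was called (IFITM2 in M228 against GFP), and calls over all genes in that comparison rose from 0.241% to 1.12%. Replicate 1 of the groups differed from replicates 2 and 3, a split chosen with earlier results of these data known. In replicate 1, 14 of 39 members were called higher, by 1.41-fold to 4.22-fold, where 7.93% of all tested genes were called higher and 15.4% in either direction. The 14 are mostly antiviral effectors, such as IFIT1, IFIT2, IFIT3 and MX1, and enzymes of the ISG15 pathway. For 3 of the 14 (OAS2, SAMD9L and IFI44) the filter on low counts was passed only through replicate 1 libraries, so their calls are no support. The 4.22-fold upper end is OAS2. Among the called members other than these 3, the log2 fold change ran from 0.49 (IFITM1) to 1.53 (IFIT1).

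Type I and type III interferons bind receptors that signal through the kinases JAK1 and TYK2 to a complex that holds STAT2 and IRF9 and turns on genes through a DNA element called the ISRE. Interferon gamma acts through the GAS element and through IRF1, and raises the genes that load peptides on class I molecules. The induced proteins bind foreign RNA, block virus entry or release, conjugate the ubiquitin-like protein ISG15 and degrade proteins for antigen display. In the gut epithelium both pathways are known for defence against viruses, and many colorectal cancer lines keep some of these genes on without added interferon.

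The targeted gene was read first. SOX9 stood at 97.6, 100.8 and 158 CPM (read counts scaled to library size, with TMM factors) in the 3 GFP libraries, at 243, 210.2 and 186 in SOX9_WT, at 1900, 2032 and 2383 in M228, at 2949, 3037 and 3039 in M303 and at 2034, 2329 and 2282 in M379. SOX9 reads were thus far higher in the mutant libraries than in SOX9_WT, so a mutant differs from SOX9_WT in the level of SOX9 reads as well as in its sequence. Whether the RNA of a construct is counted in full under SOX9 is not given, so these values may not measure the induced RNA. Total reads ranged from 3054755 in GFP replicate 1 to 31704249 in M303 replicate 1, so that 3 reads correspond to 0.912 CPM in the shallowest library and to 0.0896 CPM in the deepest, which covers counting error only. All 10 epithelial markers were tested, and EPCAM held 848 to 1117 CPM. The 10 blood cell markers summed to 637 to 3544 CPM, nearly all from LYZ, and PTPRC did not exceed 0.0671 CPM. Fibroblast markers summed to 3.35 to 6.28 CPM and endothelial markers to 0.304 to 1.61 CPM.

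The promoters of the members were examined for the elements named above. RefSeq (GRCh38.p14) gave the stretch from 250 bases before to 50 bases after the gene start for 33 of the 42 members. The core of the ISRE, searched as GAAANNGAA and as TTCNNTTTC for the other strand, was present in 21 of these 33, against 8.29% of all 27305 promoters in the table. The GAS element, TTCNNNGAA, was in 8 of the 33 and in 7.88% of all, and the SOX core, ACAAT on either strand, in 5 of the 33 and in 28.0% of all. The 9-letter elements can overlap each other in 1 run of bases. The following 80-base stretches lie upstream of the start, on the strand of the gene and from 5′ to 3′, with every whole ISRE core match in capitals. The first 6 belong to members that were called higher in replicate 1 and are shown for that reason. IFI44 among them passed the filter on low counts only through replicate 1 libraries, so its call is no support.
IFIT1, chr10:89392479-89392558, plus strand: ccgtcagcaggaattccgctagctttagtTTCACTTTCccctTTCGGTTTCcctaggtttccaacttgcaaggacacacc
IFIT3, chr10:89327823-89327902, plus strand: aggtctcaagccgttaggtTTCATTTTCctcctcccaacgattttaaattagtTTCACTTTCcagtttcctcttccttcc
HERC5, chr4:88456985-88457064, plus strand: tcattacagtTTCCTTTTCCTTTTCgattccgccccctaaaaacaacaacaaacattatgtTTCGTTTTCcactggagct
SAMD9, chr7:93118072-93118151, minus strand: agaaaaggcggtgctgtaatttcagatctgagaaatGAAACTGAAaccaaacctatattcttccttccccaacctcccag
IFI44, chr1:78649709-78649788, plus strand: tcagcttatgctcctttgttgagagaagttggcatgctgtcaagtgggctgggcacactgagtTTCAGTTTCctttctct
IFITM1, chr11:313960-314039, plus strand: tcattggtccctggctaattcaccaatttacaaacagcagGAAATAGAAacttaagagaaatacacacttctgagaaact

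The next 4 stretches are those of members that were not called in replicate 1, shown because they carry the same core.
ISG15, chr1:1013354-1013433, plus strand: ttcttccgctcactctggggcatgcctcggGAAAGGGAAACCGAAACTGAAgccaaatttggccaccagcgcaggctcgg
B2M, chr15:44711340-44711419, plus strand: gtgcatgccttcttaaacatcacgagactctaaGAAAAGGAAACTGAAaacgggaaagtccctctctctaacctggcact
TAP1, chr6:32853791-32853870, minus strand: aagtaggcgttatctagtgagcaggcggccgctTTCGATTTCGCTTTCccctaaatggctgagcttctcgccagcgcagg
BST2, chr19:17405714-17405793, minus strand: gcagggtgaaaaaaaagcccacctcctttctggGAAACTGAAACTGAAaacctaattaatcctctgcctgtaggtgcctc
The ISRE core was present in 7 of the 9 promoters of members called higher in replicate 1. Among tested members not called it was present in 13 of the 22 promoters. The 9 include IFI44 and SAMD9L, which passed the filter only through replicate 1 libraries, so these counts are a description only. The GAS element was in 1 of these 9 and in 7 of these 22, and the SOX core in 2 and in 3. A match is a description of these letters and not a measured binding site.

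Per kilobase of exon the members spanned a wide range, from 0.00776 CPM per kilobase for TRIM22 to 131 for BST2, against a median of 3.83 over all tested genes. BST2, which tethers budding virions to the cell, stood above 98.5% of tested genes. The virus entry inhibitors IFITM3 and IFITM1 followed at 94.1 and 75.1 CPM per kilobase, and then came IFI27, a mitochondrial protein gene, at 31.2 and IFITM2 at 30.3. OAS3, an oligoadenylate synthetase gene, stood at 25.2, ISG15, the ubiquitin-like modifier gene, at 25.1 and IFI6 at 23.6. B2M, the light chain gene of class I molecules, was at 11.6, above 75.0% of tested genes. SAMD9L, XAF1, IFI44L and TRIM22 lay at the bottom, with at most 0.0561 CPM per kilobase, so that HT115 held few reads of them under any construct.

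**Figure D1:**
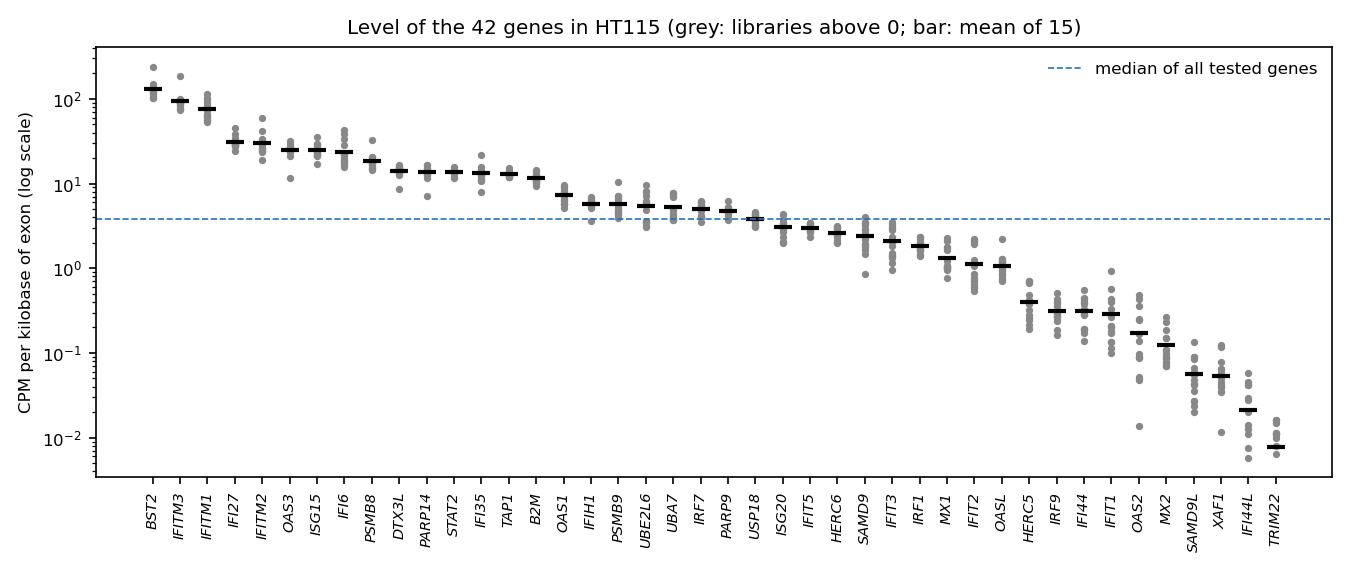
Level of each of the 42 genes in CPM per kilobase of exon (log scale), in descending order of the mean. Grey points are the libraries with at least 1 read (15 per gene where none is at 0), black bars are means of 15 libraries, and the dashed line is the median of all tested genes at 3.83. BST2 is highest at 131 and TRIM22 lowest at 0.00776.

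Replicate 1 against replicates 2 and 3 was tested within groups, with group means and 1 term for replicate 1 in an edgeR quasi-likelihood model over all 15 libraries. The split was chosen with earlier results of these data known, so its p-values are not those of a comparison fixed in advance. Of the 39 tested members 14 were called higher in replicate 1 and 0 lower at an adjusted p under 0.05, against 15.4% of all tested genes called in either direction, 7.93% called higher and 7.52% called lower. Of the members with a negative estimate, 1 had an unadjusted p under 0.05 (BST2). DESeq2 called 13 members higher and 0 lower, where it called 8.15% of 37339 genes in either direction. The median log2 fold change of the 39 was 0.22, against 0.0047 over all tested genes, and 33 of the 39 were above 0. Replicate 1 was the highest of its group in all 5 groups for 10 of the 39, against 7.82% of all tested genes, and the lowest in all 5 groups for 1, against 8.95%. All 5 replicate 1 libraries exceeded all 10 others for 9 members (IFIT1, IFIT2, IFIT3, MX1, OAS2, UBA7, PARP14, SAMD9 and SAMD9L), against 2.36% of all tested genes, and were below them for 0, against 3.06%. OAS2 and SAMD9L are among these 9, among the 10 and, with IFI44, among the 14 called. These 3 passed the filter on low counts only through replicate 1 libraries, so they are no support in any of these counts. In bulk RNA a change in the share of cells that express a gene and a change in RNA per cell cannot be told apart.

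**Figure D2:**
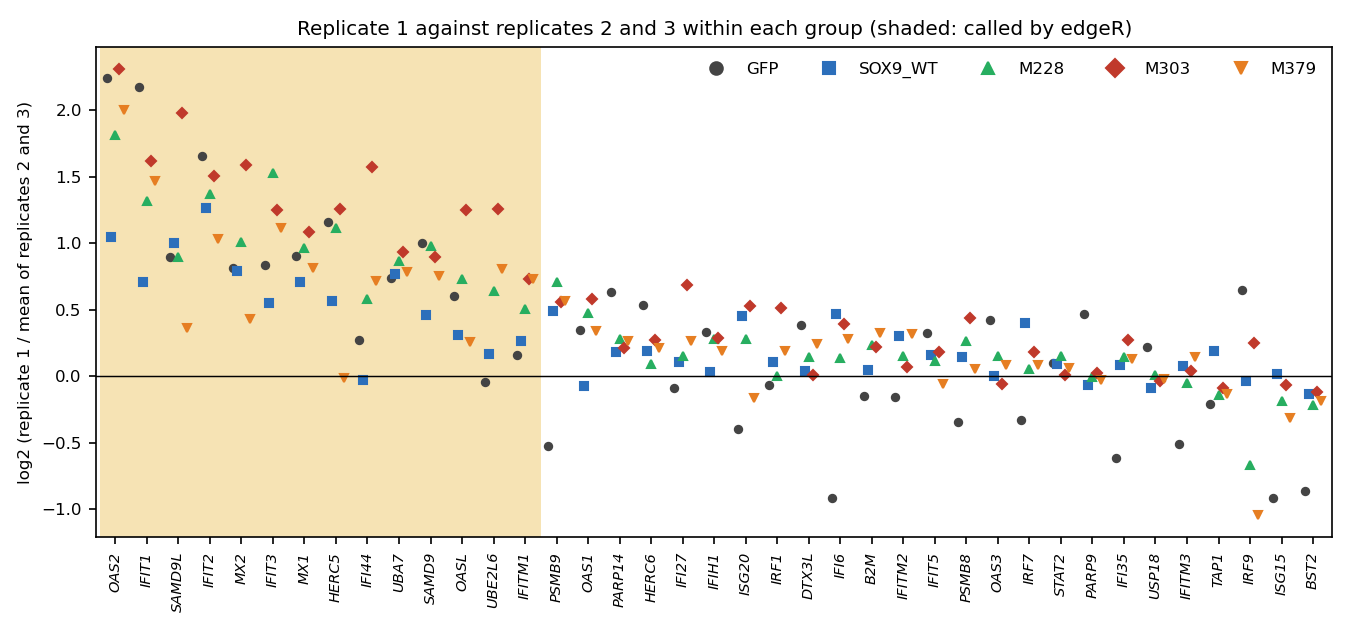
Log2 ratio of replicate 1 to the mean of replicates 2 and 3 in CPM, with a pseudocount of 0.1 CPM, for each of the 39 tested genes (x axis) and each of the 5 groups (symbols). The 14 genes called by edgeR are shaded, and in M228 and M303 all 14 lie above 0.

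The RNA sensing and effector genes, a class that also holds MX1, MX2, SAMD9 and SAMD9L, had most of the calls. In this class 9 of 14 tested members were called, with a median log2 fold change of 0.87. Over all tested genes 7.93% were called higher. The 9 and the 14 include OAS2 and SAMD9L, which passed the filter on low counts only through replicate 1 libraries. The count and the median are therefore a description only. Values below are CPM in the order GFP, SOX9_WT, M228, M303 and M379. IFIT2, whose protein binds foreign RNA and curbs its translation, stood at 8.52, 9.05, 7.88, 8.66 and 5.10 in replicate 1. Its replicates 2 and 3 held 2.39 and 2.88 in GFP, 4.34 and 3.06 in SOX9_WT, 3.53 and 2.43 in M228, 2.85 and 3.13 in M303, and 2.21 and 2.68 in M379. The 5 highest libraries were thus the 5 of replicate 1, and the log2 fold change was 1.39 ± 0.13 (SE, edgeR adjusted p = 9.2e-05). IFIT1, which acts on RNA that lacks a host cap, stood at 4.26, 1.85, 1.99, 2.63 and 1.54. The other IFIT1 libraries were at 0.937 and 0.795 in GFP, 1.22 and 0.955 in SOX9_WT, 0.847 and 0.622 in M228, 0.962 and 0.617 in M303, and 0.455 and 0.535 in M379. GFP replicate 1 was the highest, from 14 reads, and the sets did not overlap (1.53 ± 0.20, edgeR adjusted p = 0.00041). IFIT3, a partner of IFIT1, held 8.52, 7.20, 7.88, 8.84 and 7.65 in replicate 1. It held 3.49 and 5.93 in GFP, 4.61 and 5.16 in SOX9_WT, 2.40 and 2.94 in M228, 3.503 and 3.79 in M303, and 3.31 and 3.63 in M379. The sets again did not overlap, at 1.08 ± 0.14. These genes are neighbours on chromosome 10 (GRCh38, plus strand): IFIT2 at chr10:89283694-89309271, IFIT3 at chr10:89327997-89340971, IFIT1 at chr10:89392546-89406487 and IFIT5 at chr10:89414568-89420997. IFIT5, the last of the row, differed by 0.14 ± 0.09 and was not called (edgeR adjusted p = 0.32).

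The synthetases whose oligoadenylates activate RNase L did not move together. OAS2, which passed the filter only with its replicate 1 libraries, had the highest fold change of the members, 2.08 ± 0.30 (edgeR adjusted p = 0.00069), with 3.04, 1.56, 2.24, 2.69 and 1.54 CPM in replicate 1. Replicates 2 and 3 of OAS2 held 0.0852 and 1.04 in GFP, 0.543 and 0.860 in SOX9_WT, 0.565 and 0.565 in M228, 0.308 and 0.617 in M303, and 0.325 and 0.297 in M379. The sets did not overlap, but OAS2 rests on few reads: 1 in GFP replicate 2, 4 in M228 replicate 2 and 90 in M303 replicate 1. OAS1 and OAS3 lie beside it on chromosome 12, OAS1 at chr12:112906783-112933222, OAS3 at chr12:112938444-112973251 and OAS2 at chr12:112978395-113011723. OAS1 differed by 0.34 ± 0.12 (edgeR adjusted p = 0.066) and OAS3 by 0.12 ± 0.14 (edgeR adjusted p = 0.60), and neither was called. OASL, which lacks that enzyme activity and aids RNA sensing by RIG-I, stood at 4.56, 4.13, 4.49, 7.79 and 4.16 in replicate 1. Its other libraries held 2.56 and 3.37 in GFP, 2.99 and 3.63 in SOX9_WT, 2.82 and 2.49 in M228, 3.08 and 3.37 in M303, and 2.60 and 4.34 in M379. Replicate 1 was highest in 4 of the 5 groups, and the fold change was 0.70 ± 0.17 (edgeR adjusted p = 0.013). Leaving out M303 replicate 1 gave 0.47 for OASL, which lost the call (edgeR adjusted p = 0.12), as it did without M228 replicate 1 (edgeR adjusted p = 0.051).

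MX1 and MX2, dynamin-like GTPases that trap incoming viruses and are neighbours on chromosome 21, were both higher in replicate 1. MX1 held 18.2, 14.01, 15.1, 19.4 and 15.2 CPM there. Elsewhere MX1 was at 10.6 and 8.87 in GFP, 8.35 and 8.69 in SOX9_WT, 8.76 and 6.55 in M228, 8.93 and 9.20 in M303, and 8.12 and 9.04 in M379. The sets did not overlap, and the log2 fold change was 0.92 ± 0.09 (edgeR adjusted p = 9.4e-05). MX2 stood at 2.43, 1.95, 3.01, 3.43 and 1.41 in replicate 1. Its other libraries were at 1.28 and 1.41 in GFP, 1.02 and 1.15 in SOX9_WT, 1.98 and 0.904 in M228, 1.15 and 0.996 in M303, and 0.909 and 1.13 in M379. Replicate 1 of MX2 was the highest of its group in all 5 groups although the sets overlapped, with a fold change of 1.11 ± 0.20 (edgeR adjusted p = 0.0023).

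SAMD9 and SAMD9L, a pair of antiviral genes next to each other on chromosome 7, also rose. SAMD9 held 23.7, 24.0, 27.7, 22.0 and 19.7 CPM in replicate 1. Otherwise SAMD9 stood at 5.79 and 17.8 in GFP, 19.6 and 15.1 in SOX9_WT, 15.3 and 12.8 in M228, 11.3 and 12.1 in M303, and 10.1 and 13.3 in M379. All 5 replicate 1 libraries exceeded the other 10, by the narrowest gap between M379 replicate 1 and SOX9_WT replicate 2, and the fold change was 0.82 ± 0.18 (edgeR adjusted p = 0.0087). SAMD9L was far scarcer and also passed the filter only through replicate 1, at 0.608, 0.632, 0.641, 0.955 and 0.470. Its remaining values were 0.256 and 0.306 in GFP, 0.339 and 0.191 in SOX9_WT, 0.424 and 0.170 in M228, 0.193 and 0.142 in M303, and 0.390 and 0.297 in M379. The sets did not overlap, with a fold change of 1.44 ± 0.30 (edgeR adjusted p = 0.0057). The GFP replicate 1 value of SAMD9L is only 2 reads, and without M303 replicate 1, which has 32 reads, the estimate fell short of a call at 0.99 (edgeR adjusted p = 0.086). The exonuclease gene ISG20 and IFIH1, which encodes the RNA sensor MDA5, differed by 0.20 ± 0.13 and 0.22 ± 0.10 and were not called (edgeR adjusted p = 0.35 and 0.17).

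**Figure D3:**
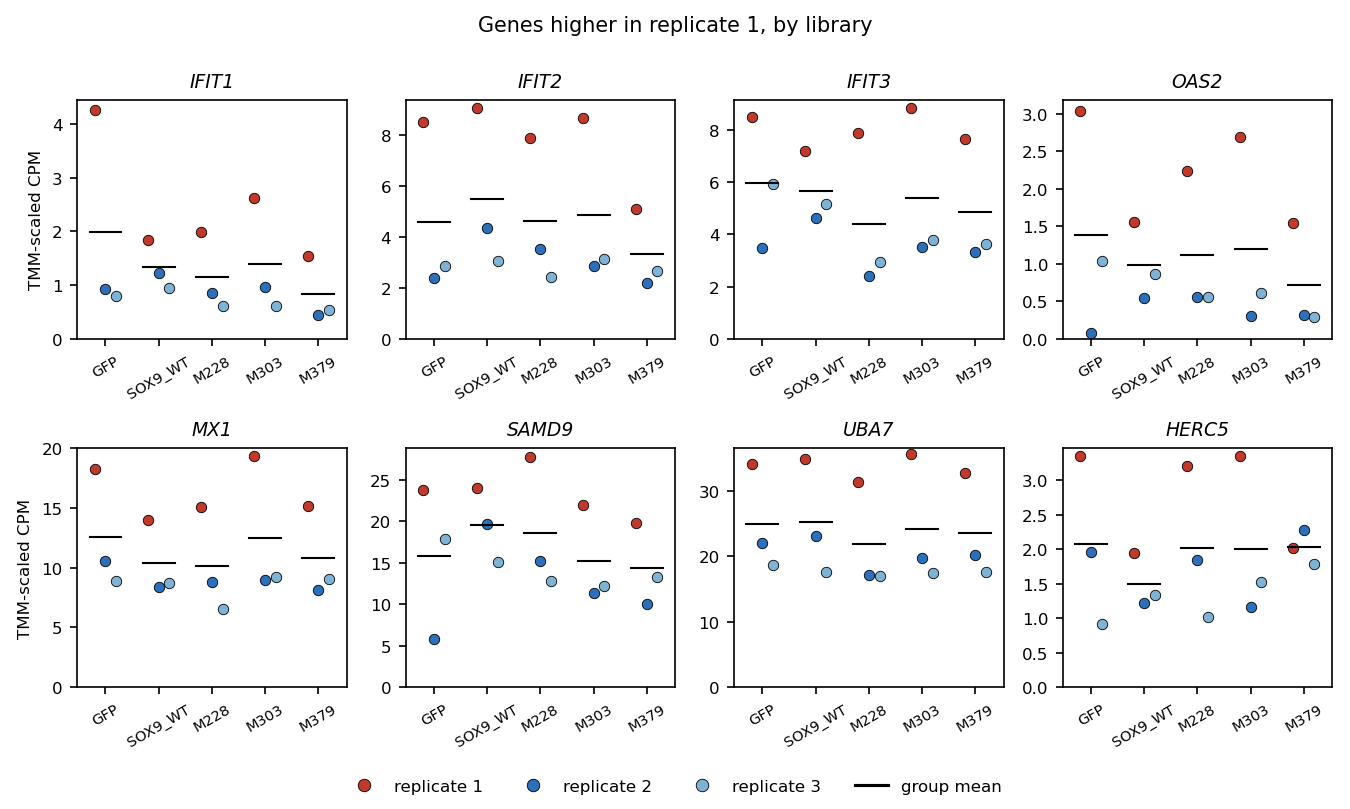
TMM-scaled CPM (y axis, from 0) of 8 members in each of 15 libraries, grouped by construct (x axis), with replicate 1 in red, replicates 2 and 3 in blue and the group mean as a bar. Replicate 1 is the highest point of every group for all but HERC5, whose replicate 1 in M379 (2.01) lies between replicates 2 and 3 (2.27 and 1.78).

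In the ISG15 pathway the activating enzyme UBA7, the conjugating enzyme UBE2L6 and the ligase HERC5 were higher in replicate 1, 3 of 6 tested members. UBA7 stood at 34.1, 34.8, 31.3, 35.6 and 32.6 CPM in replicate 1. It was at 22.0 and 18.7 in GFP, 23.1 and 17.6 in SOX9_WT, 17.1 and 17.01 in M228, 19.6 and 17.4 in M303, and 20.1 and 17.6 in M379. UBA7 was the most even of the called members across groups: its 5 values in replicate 1 spanned 31.3 to 35.6, the other 10 spanned 17.01 to 23.1, and the fold change was 0.83 ± 0.08 (edgeR adjusted p = 9.4e-05). UBE2L6 held 16.7, 12.8, 11.7, 16.5 and 12.01 in replicate 1. The UBE2L6 values of replicates 2 and 3 were 19.6 and 14.9 in GFP, 10.1 and 12.6 in SOX9_WT, 7.34 and 7.51 in M228, 6.47 and 7.21 in M303, and 6.37 and 7.25 in M379. Replicate 1 was highest in 4 groups but not in GFP, and the fold change of 0.63 ± 0.15 (edgeR adjusted p = 0.013) was not called without M303 replicate 1 (0.42, edgeR adjusted p = 0.10), M379 replicate 1 (0.58, edgeR adjusted p = 0.057) or M228 replicate 1 (0.62, edgeR adjusted p = 0.051). HERC5 stood at 3.35, 1.95, 3.20, 3.34 and 2.01. Its other values were 1.96 and 0.918 in GFP, 1.22 and 1.34 in SOX9_WT, 1.84 and 1.02 in M228, 1.15 and 1.52 in M303, and 2.27 and 1.78 in M379. M379 was the group in which replicate 1 of HERC5 was not the highest, and the fold change was 0.90 ± 0.22 (edgeR adjusted p = 0.015). HERC5 lost its call without M303 replicate 1 (0.73, edgeR adjusted p = 0.12) or M228 replicate 1 (0.81, edgeR adjusted p = 0.075).

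The modifier itself did not follow its enzymes. ISG15 held 14.6, 19.1, 20.5, 21.7 and 18.9 CPM in replicate 1 and 31.1 and 24.2 in GFP, 18.4 and 19.2 in SOX9_WT, 21.2 and 25.5 in M228, 20.7 and 24.7 in M303, and 25.1 and 21.9 in M379. Replicate 1 was the lowest of its group for ISG15 in 3 groups and the highest in none, and the fold change of -0.25 ± 0.12 was not called (edgeR adjusted p = 0.17). USP18, the protease that removes ISG15, differed by -0.01 ± 0.11 and HERC6, a gene related to HERC5 and its neighbour on chromosome 4, by 0.25 ± 0.09 (edgeR adjusted p = 0.98 and 0.070). DESeq2 did call HERC6.

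Among the membrane restriction factors 1 of 4 was called. IFITM1 stood at 92.8, 79.6, 75.3, 96.1 and 86.8 CPM in replicate 1. IFITM1 held 107 and 58.9 in GFP, 62.6 and 69.8 in SOX9_WT, 50.1 and 55.8 in M228, 59.0 and 56.4 in M303, and 52.2 and 52.1 in M379. In GFP replicate 2 was the highest library of all, and replicate 1 led in the other 4 groups (0.49 ± 0.12, edgeR adjusted p = 0.015). The call was lost without replicate 1 of M228 (0.49, edgeR adjusted p = 0.055), M303 (0.42, edgeR adjusted p = 0.091) or M379 (0.43, edgeR adjusted p = 0.069). IFITM2 and IFITM3, its close copies on chromosome 11, differed by 0.14 ± 0.13 and -0.05 ± 0.14 (edgeR adjusted p = 0.47 and 0.85). Multi-mapping reads were not counted, another gene of the same strand covers 37.5% of the exon bases of IFITM1 and 22.7% of those of IFITM2, and an opposite-strand gene covers 24.9% of those of IFITM3, so values of these 3 genes are uncertain.

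BST2 was the member with the lowest fold change. It stood at 114, 112, 136, 132 and 126 CPM in replicate 1 and at 265 and 149 in GFP, 118 and 128 in SOX9_WT, 150.1 and 165 in M228, 143 and 144 in M303, and 141 and 145 in M379. Replicate 1 was the lowest of its group in all 5 groups, but the difference of -0.29 ± 0.13 was not called (edgeR adjusted p = 0.14). Leaving out GFP replicate 2, where BST2 was highest, gave a difference of -0.19 that was called lower (edgeR adjusted p = 0.0055).

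No transcription factor, PARP9-group gene or antigen processing gene was called by edgeR or DESeq2, and their counts with an unadjusted p under 0.05 were 0 of 4, 1 of 3 and 1 of 4, where 30.4% of all tested genes had such a p. STAT2, which carries the interferon signal to the nucleus, stood at 71.5 to 97.4 CPM over the 15 libraries and differed by 0.08 ± 0.06. Its partner IRF9 (-0.18 ± 0.23) and the factors IRF1 (0.18 ± 0.11) and IRF7 (0.11 ± 0.12) did not reach the threshold either. A same-strand gene covers 42.2% of the exon bases of IRF9, and an opposite-strand gene covers 22.1% of those of IRF1. PARP14, an ADP-ribosyltransferase gene, was higher in all 5 replicate 1 libraries (149.9 to 171 CPM) than in all 10 others (73.5 to 146), with a fold change of 0.31 ± 0.12 that was not called (edgeR adjusted p = 0.094). PARP9 and DTX3L, whose proteins form 1 complex and whose genes share a start region on chromosome 3, differed by 0.07 ± 0.09 and 0.16 ± 0.10.

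The immunoproteasome subunit PSMB9 came closest among the antigen processing genes, at 0.42 ± 0.16 (edgeR adjusted p = 0.089), with 18.6 to 23.7 CPM in replicate 1 and 13.1 to 34.9 in the others. PSMB8, the neighbouring subunit gene on chromosome 6, differed by 0.13 ± 0.12, and the peptide transporter gene TAP1 beside them by -0.07 ± 0.07. Opposite-strand genes cover 17.3% of the exon bases of PSMB8 and 12.01% of those of TAP1. B2M differed by 0.15 ± 0.08 and spanned 57.5 to 88.1 CPM.

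Of the remaining genes IFI44 was called, at 0.86 ± 0.27 (edgeR adjusted p = 0.048). IFI44 stood at 0.912, 0.584, 0.769, 1.13 and 0.872 CPM in replicate 1. It was at 0.681 and 0.795 in GFP, 0.814 and 0.382 in SOX9_WT, 0.565 and 0.396 in M228, 0.346 and 0.285 in M303, and 0.390 and 0.595 in M379. The sets overlapped, replicate 1 was not the highest in SOX9_WT, and the GFP replicate 1 value is 3 reads. Leaving out 1 library kept this call in 4 of 15 cases, and without M303 replicate 1 the fold change was 0.45 (edgeR adjusted p = 0.39). IFI27, IFI6 and IFI35 differed by 0.24 ± 0.11, 0.16 ± 0.16 and 0.04 ± 0.15 and were not called. XAF1, IFI44L and TRIM22 reached at most 0.827, 0.597 and 0.0973 CPM. An opposite-strand gene covers 38.3% of the exon bases of XAF1.

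The called members were mostly scarce ones. Of the 16 tested members below the median level of all tested genes (3.83 CPM per kilobase) 11 were called higher in replicate 1, and of the 23 at or above it 3 were called: UBA7, UBE2L6 and IFITM1. Over all tested genes 10.1% of those below the median level and 5.77% of those at or above it were called higher. The filter asks for 10 reads at the median library size in 3 libraries, and OAS2, SAMD9L and IFI44 reached this in 2, 0 and 2 libraries outside replicate 1. These 3 scarce members had to be high in replicate 1 to be tested at all, so the counts by level are a description only.

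Within groups the median log2 ratio of replicate 1 to the mean of replicates 2 and 3, with 0.1 CPM added, was 0.32 in GFP, 0.18 in SOX9_WT, 0.26 in M228, 0.44 in M303 and 0.26 in M379, against -0.03 to 0.001 over all tested genes. It was above 0 for 24 of 39 members in GFP, 33 in SOX9_WT, 33 in M228, 34 in M303 and 30 in M379. Whether the replicate 1 shift was unequal between groups was tested by an interaction term with 5 residual degrees of freedom. edgeR called 0 of the 39 members and 0% of all tested genes, and 1 member (UBE2L6) had an unadjusted p under 0.05. DESeq2 called 0 members and 0.0107% of all genes. Without GFP replicate 3 the same test called 13 members and 18.4% of all tested genes. The count of members called for the shift itself was 27 without GFP replicate 2, of which 26 were higher and BST2 lower, where 32.2% of all tested genes were called. It was 9 without M228 replicate 1 and 8 without M303 replicate 1, where 6.75% and 5.40% of all tested genes were called. Without all 3 GFP libraries it was 24, of which 23 were higher and BST2 lower, beside 29.1% of all tested genes. The member counts thus rose and fell with those over all genes. Against replicate 2 alone 11 members were called higher and against replicate 3 alone 13, where 12.6% and 13.4% of all tested genes were called in either direction. The shares called higher alone were not computed for these settings. Between replicates 2 and 3 edgeR called 0 members, where 0.0619% of all tested genes were called. At an unadjusted p under 0.05 there were 4 members and 2243 of all 16160 tested genes.

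Several other measures moved with replicate 1. Summed epithelial markers held 10833 to 15076 CPM in replicate 1 and 17079 to 25663 in replicates 2 and 3, without overlap, and of the 10 markers KRT8 (-0.67 ± 0.10), KRT18 (-0.77 ± 0.14) and KRT19 (-0.50 ± 0.12) were called lower and CDX2 (0.46 ± 0.10) higher. Mitochondrial genes took 4.62% to 7.27% of reads in replicate 1 and 7.01% to 9.94% in the others. LYZ, the only tested gene of the blood cell list, was higher in replicate 1 (0.56 ± 0.09, edgeR adjusted p = 0.0011). The 9 others of that list were untested, with CD3E at 0 reads in all libraries and PTPRC at most 0.0671 CPM. LYZ is therefore not read here as a sign of blood cells. COL3A1, a fibroblast marker with at most 1.69 CPM, was lower. Replicate 1 was the deepest library of its group in SOX9_WT and M303 and the shallowest in GFP and M379. The part of these measures in the shift of the members was not tested.

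The comparisons between groups ask what SOX9 or its mutants do to these genes. At an adjusted p under 0.05 edgeR called 0 of the 39 members in SOX9_WT against GFP, where 0.0309% of all tested genes were called, and 0 in M228 (0.241%), M303 (0.118%) and M379 (0.0371%) against GFP. Against SOX9_WT it called 0 members in M228 (0.569%), in M303 (0.384%) and in M379 (0.124%). The F test for any difference among the 5 groups also called 0 of 39, against 0.681% of all tested genes. At an unadjusted p under 0.05 these counts were 7, 5, 5 and 5 members against GFP, where 10.7%, 9.38%, 7.80% and 6.77% of all tested genes had such a p. They were 2, 2 and 2 against SOX9_WT (6.65%, 6.31% and 4.70%) and 6 in the F test (6.85%). DESeq2 called IFITM2 in M228 against GFP (0.45% of all genes), IFI6 in M303 against SOX9_WT (0.402%) and both in the F test (0.919%), and 0 in the other 5 comparisons. The median log2 fold change of the members lay between -0.10 (M379 against GFP) and 0.04 (M303 against GFP), against -0.001 to 0.012 over all tested genes. The contrasts against GFP share the 3 GFP libraries and those against SOX9_WT share its 3 libraries. The fits hold no term for replicate number, so differences between replicate numbers are part of their spread.

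**Figure D4:**
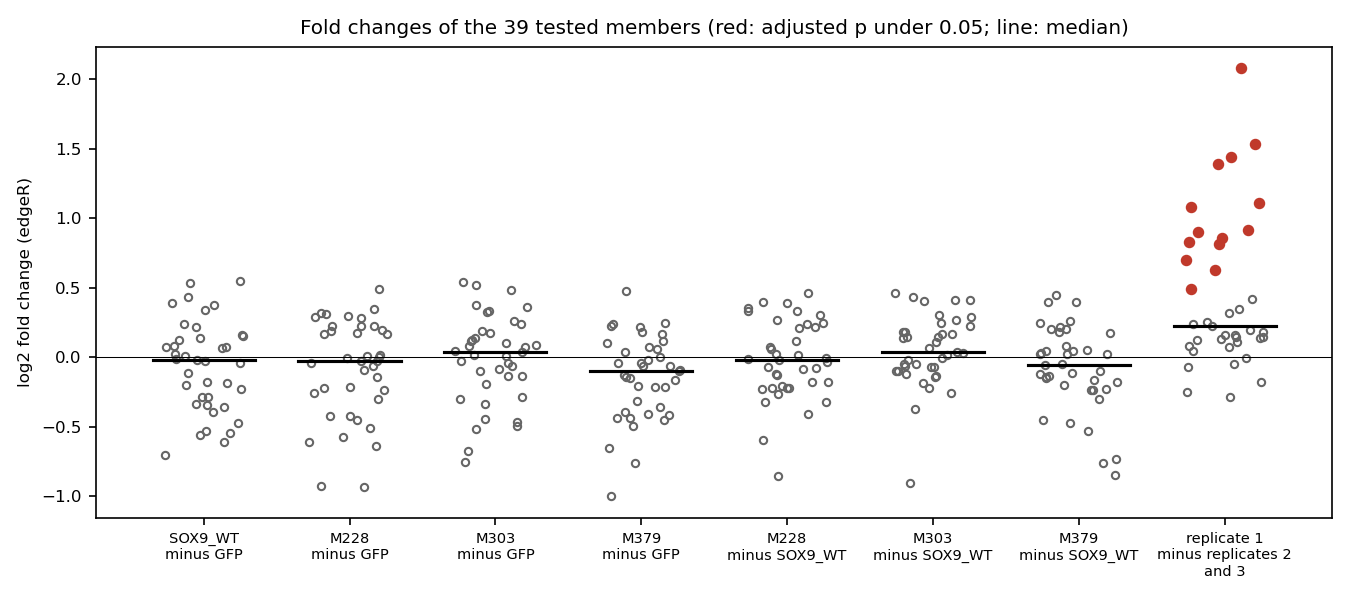
Log2 fold change by edgeR (y axis) of each of the 39 tested members in the 7 comparisons between groups and in replicate 1 against replicates 2 and 3 (x axis); filled red points have an adjusted p under 0.05 and bars are medians. The 7 group comparisons hold no red point, and the replicate comparison holds 14, from 0.49 to 2.08. The highest is OAS2, which passed the filter on low counts only through replicate 1 libraries.

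IFITM2, which blocks fusion of viruses in endosomes, was the member closest to a call against GFP. It stood at 63.9, 90.9 and 51.5 CPM in GFP, 48.3, 37.3 and 41.1 in SOX9_WT, 38.7, 29.5 and 40.1 in M228, 44.7, 39.8 and 45.2 in M303, and 50.5, 36.2 and 44.7 in M379. All 12 libraries with a SOX9 construct lay below all 3 GFP libraries, the nearest being M379 replicate 1 and GFP replicate 3. The 9 mutant libraries alone lie below GFP in this way for 0.835% of all tested genes. The share for all 12 was not computed. Relative to GFP, IFITM2 had a log2 fold change of -0.70 ± 0.20 under SOX9_WT (edgeR adjusted p = 0.38), -0.92 ± 0.20 under M228 (edgeR adjusted p = 0.070), -0.67 ± 0.20 under M303 (edgeR adjusted p = 0.34) and -0.65 ± 0.20 under M379 (edgeR adjusted p = 0.50). With the replicate number as a block, the M228 value was -0.94 ± 0.20 and passed (edgeR adjusted p = 0.034). Leaving out GFP replicate 3 gave -1.10, which passed (edgeR adjusted p = 0.021), and leaving out GFP replicate 2, the highest library, gave -0.65 (edgeR adjusted p = 0.16). The values under SOX9_WT, M303 and M379 were -0.43, -0.40 and -0.38 without GFP replicate 2.

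IFITM3 followed the same order at a higher level, with 112, 213 and 105 CPM in GFP, 97.5, 87.8 and 96.5 in SOX9_WT, 90.1, 85.2 and 102 in M228, 107, 105 and 105 in M303, and 114, 102 and 103 in M379. GFP replicate 2 stood apart, and the other libraries lay between 85.2 and 114. Its differences from GFP of -0.61 ± 0.20 under SOX9_WT and -0.64 ± 0.20 under M228 did not pass (edgeR adjusted p = 0.43 and 0.31), and without GFP replicate 2 they were -0.20 and -0.22. UBE2L6, whose values are given above, had the lowest fold change of the members against GFP under each mutant: M228 (-0.94 ± 0.34, edgeR adjusted p = 0.39), M303 (-0.75 ± 0.33, edgeR adjusted p = 0.61) and M379 (-0.999 ± 0.33, edgeR adjusted p = 0.59). Its 9 mutant libraries overlapped GFP through M303 replicate 1, at 16.5 CPM.

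IFI6, an interferon-induced gene whose protein restrains virus replication at membranes, separated the mutants from SOX9_WT. It stood at 13.4, 32.1 and 18.5 CPM in GFP, 36.2, 28.3 and 24.0 in SOX9_WT, 17.4, 15.96 and 15.7 in M228, 18.8, 14.6 and 14.04 in M303, and 18.7, 16.05 and 14.6 in M379. All 9 mutant libraries lay below the 3 of SOX9_WT, as 2.93% of all tested genes did. The GFP libraries spanned both ranges. Relative to SOX9_WT, IFI6 differed by -0.85 ± 0.24 under M228, -0.90 ± 0.24 under M303 and -0.85 ± 0.24 under M379 (edgeR adjusted p = 0.19, 0.16 and 0.41), and none was called. Fitted without the other 3 groups, M228 and M379 did pass (edgeR adjusted p = 0.012 and 0.026). DTX3L was the other member with all 9 mutant libraries below SOX9_WT, at 89.9 to 94.4 CPM in SOX9_WT and 72.2 to 88.5 in the mutants, but its fold changes were no lower than -0.25 ± 0.17 (M303).

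Between 0 and 7 of the 39 members separated 2 groups without overlap in 1 direction. All 3 SOX9_WT libraries lay above the 3 of GFP for STAT2 and DTX3L (2 of 39 members, against 6.6% of all tested genes) and below them for IFITM2, IFITM3, IRF1 and UBE2L6 (4 of 39, against 5.15%). M228 lay above GFP for OAS3 (1 of 39, against 5.32%) and below it for IFITM2, IFITM3, PSMB8 and UBE2L6 (4 of 39, against 4.22%). For M303 the counts were 0 above GFP (against 5.5%) and 1 below, IFITM2 (against 3.87%). M379 lay above GFP for USP18 (1 of 39, against 4.9%) and below it for IFITM2, PSMB8 and UBE2L6 (3 of 39, against 3.84%). Compared with SOX9_WT, M228 was above for 5 members, ISG15, OAS3, IRF1, HERC6 and BST2 (against 7.12%), and below for 4, IFI6, ISG20, STAT2 and DTX3L (against 8.61%). M303 was above SOX9_WT for 7 members, IFI35, IFITM3, ISG15, OAS3, IRF7, USP18 and BST2 (against 9.5%), and below it for IFI6 and DTX3L (against 9%). M379 was above SOX9_WT for IFI35, IFITM3 and USP18 (against 9.74%) and below it for IFI6, STAT2, PARP9 and DTX3L (against 9.48%). No member had all 9 mutant libraries above GFP (against 1.63%) or above SOX9_WT (against 2.04%).

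**Figure D5:**
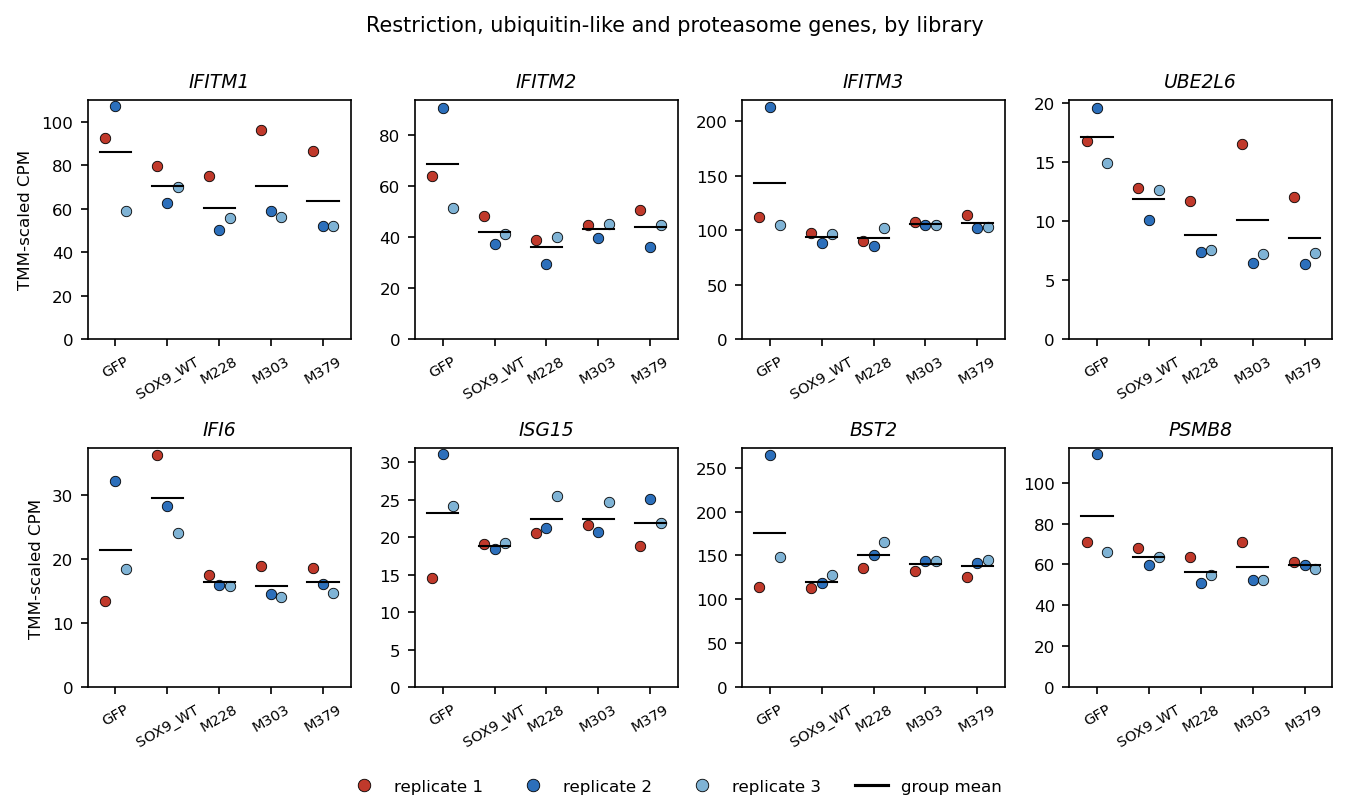
TMM-scaled CPM (y axis, from 0) of 8 members by group (x axis) and library, with replicate 1 in red, replicates 2 and 3 in blue and group means as bars. GFP replicate 2 is the highest library for all of these but IFI6, and IFI6 is highest in SOX9_WT replicate 1 (36.2).

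The other extremes of the group comparisons were not called either. In SOX9_WT against GFP they were BST2 at the low end (-0.56 ± 0.22, edgeR adjusted p = 0.45, and -0.15 without GFP replicate 2) and IFIT2 (0.55 ± 0.62, edgeR adjusted p = 0.71), ISG20 (0.53 ± 0.22, edgeR adjusted p = 0.45) and IFI6 (0.43 ± 0.24, edgeR adjusted p = 0.51, and 0.84 without GFP replicate 2) at the high end. Against GFP, M228 was highest for OAS3 (0.49 ± 0.22), MX2 (0.35 ± 0.55) and SAMD9 (0.32 ± 0.43), with edgeR adjusted p of 0.50, 0.86 and 0.84. M303 was low for PSMB8 (-0.52 ± 0.19, edgeR adjusted p = 0.51, and -0.22 without GFP replicate 2) and high for OASL (0.54 ± 0.37), SAMD9L (0.52 ± 0.75) and ISG20 (0.48 ± 0.22), with edgeR adjusted p of 0.75, 0.87 and 0.61. M379 was low for IFIT1 (-0.76 ± 0.76, edgeR adjusted p = 0.92, and -0.045 without GFP replicate 1) and high for ISG20 (0.48 ± 0.22), OAS3 (0.25 ± 0.22) and SAMD9L (0.24 ± 0.82), with edgeR adjusted p of 0.73, 0.90 and 0.98. The standard errors of these IFIT, MX2 and SAMD9L values were 0.55 to 0.82.

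Beside IFI6, M228 against SOX9_WT was lowest for ISG20 (-0.59 ± 0.21, edgeR adjusted p = 0.40) and UBE2L6 (-0.41 ± 0.33, edgeR adjusted p = 1.00) and highest for MX2 (0.46 ± 0.51), HERC5 (0.40 ± 0.49) and IRF7 (0.39 ± 0.19, edgeR adjusted p = 0.79). M303 against SOX9_WT was lowest for SAMD9 (-0.37 ± 0.41) and DTX3L and highest for IRF7 (0.46 ± 0.18, edgeR adjusted p = 0.60), MX2 (0.44 ± 0.48) and OASL (0.41 ± 0.35). M379 against SOX9_WT was lowest for IFIT2 (-0.76 ± 0.57) and IFIT1 (-0.73 ± 0.69) and highest for USP18 (0.45 ± 0.17, edgeR adjusted p = 0.77), HERC5 (0.40 ± 0.48) and IFI35 (0.39 ± 0.22). Those printed here without a p had an edgeR adjusted p of at least 0.979.

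Of the highly expressed members not yet given by library, IFI27 held 123, 161 and 99.98 CPM in GFP, 132, 128 and 118 in SOX9_WT, 135, 125 and 117 in M228, 187, 115 and 117 in M303, and 144, 122 and 118 in M379. M303 replicate 1 was its highest library, and the other 14 lay between 99.98 and 161. OAS3 stood at 206, 95.0 and 212 in GFP, 199, 194 and 203 in SOX9_WT, 257, 219.6 and 242 in M228, 209, 218 and 217 in M303, and 211, 174 and 223 in M379. GFP replicate 2 was the lowest of the 15 for OAS3, and M228 replicate 1 the highest.

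GFP replicate 2 stood at an extreme for many genes, and for the members no more often than for all tested genes in these counts. It was the lowest of the 15 libraries for 9 of the 39, against 30.4% of all tested genes: IFIT5, OAS2, OAS3, STAT2, IFIH1, PARP9, PARP14, DTX3L and SAMD9, whose median exon length was 6264 bases. For 9 others it was the highest, against 27.7% of all tested genes: IFI35, IFITM1, IFITM2, IFITM3, ISG15, PSMB8, PSMB9, UBE2L6 and BST2, with a median exon length of 1543 bases. Over all tested genes the median lengths were 6939 and 2885.5 bases. The median dispersion within GFP was 0.0975, against 0.0104 to 0.0232 in the other 4 groups. The part of exon length or of this library in the comparisons against GFP was not tested.

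The rest of the pathway was read from lists that share no gene with the members, beside 7.93% of all tested genes called higher and 7.52% called lower in replicate 1. Interferon genes were nearly silent: 12 of 21 had no read in any library, the 21 held 168 reads in all, 142 of them IFNE, and IFNB1 had 7 reads. All 13 receptor and JAK-STAT genes were tested, and IRF8 was higher in replicate 1 (0.52 ± 0.08, edgeR adjusted p = 0.0013). Of 14 tested sensors and adaptors DHX58 (0.46 ± 0.13) and STING1 (0.34 ± 0.11) rose and IRF3 (-0.46 ± 0.12) fell in replicate 1. Of 37 other interferon-stimulated genes 8 were called higher in replicate 1 and 0 lower by edgeR, with a median of 0.14. At an unadjusted p under 0.05 there were 14 (37.8%, against 30.4% of all tested genes). DESeq2 called 11, where it called 8.15% of all genes in either direction. The 8 called by edgeR were led by EPSTI1 (0.91 ± 0.14, edgeR adjusted p = 0.0010), DDX60 (0.80 ± 0.14, edgeR adjusted p = 0.0025), APOL1 (0.66 ± 0.14, edgeR adjusted p = 0.0072) and CMPK2 (0.73 ± 0.17, edgeR adjusted p = 0.012). Whether a gene passed the filter on low counts only through replicate 1 libraries was examined for the members, not for these lists. Of 10 interferon gamma targets the guanylate-binding protein genes GBP2 (0.69 ± 0.11) and GBP1 (0.84 ± 0.19) rose and WARS1 (-0.28 ± 0.06), a tRNA synthetase gene, fell.

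Among the 19 other genes of class I presentation MR1 (0.60 ± 0.13) rose in replicate 1, and the chaperone genes CALR (-0.76 ± 0.11, edgeR adjusted p = 0.00061) and PDIA3 (-0.49 ± 0.09) fell. These 3 of 19 are 15.8%, next to 15.4% of all tested genes, so they are no result about the list. Of 7 tested class II genes CTSS, a protease gene, rose (0.94 ± 0.13, edgeR adjusted p = 0.00057), or 14.3% of that list, and of 8 negative regulators NLRX1 (0.29 ± 0.09) rose and PTPN2 (-0.24 ± 0.07) fell. The calls of STING1, NLRX1, PTPN2, DHX58 and IRF3 were the least stable of these: leaving out 1 library ended them in 12, 11, 6, 5 and 4 of 15 cases. Without M303 replicate 1 all 5 lost the call, at 0.24, 0.20, -0.24, 0.35 and -0.48, and so did APOL1 (0.60), CMPK2 (0.61), GBP1 (0.64) and MR1 (0.51). CMPK2 also lost it without M228 replicate 1 (0.65).

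In the group comparisons these lists held few calls. IFNGR2, a chain of the interferon gamma receptor, was higher in M228 (0.65 ± 0.12, edgeR adjusted p = 0.024) and in M303 (0.64 ± 0.12, edgeR adjusted p = 0.035) than in SOX9_WT. It stood at 23.1, 27.1 and 21.7 CPM in GFP, 23.3, 22.4 and 22.5 in SOX9_WT, 35.1, 38.4 and 33.4 in M228, 36.7, 37.1 and 32.5 in M303, and 27.6, 31.3 and 27.2 in M379. All 9 mutant libraries of IFNGR2 lay above all 6 of GFP and SOX9_WT, narrowly for M379 replicate 3 (27.2) over GFP replicate 2 (27.1). The 9 mutant libraries lay above GFP for 1.63% of all tested genes and above SOX9_WT for 2.04%. The share above both was not computed. Both calls were lost when any 1 of the 6 libraries compared was left out, with fold changes of 0.59 to 0.70 and an edgeR adjusted p of at least 0.059. HLA-DMB, a class II gene, was at most 1.85 CPM and higher in M303 than in SOX9_WT (3.06 ± 0.49, edgeR adjusted p = 0.016). That call was lost without any 1 SOX9_WT library or without M303 replicate 3, at 2.87 to 3.19.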

How the data were processed

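Poly(A) RNA was sequenced in 15 libraries, and the authors deposited raw read counts per gene. Reads were aligned to hg38 with STAR 2.7.0a, per the submitters' processing notes, and counted with featureCounts 2.0.1 on Ensembl 101 (GRCh38), per the file headers, without strand or pair options, so that mates count separately and overlapping genes on opposite strands cannot be told apart. The deposited normalized table was not used, and 3 count columns matched no sample label. Counts were filtered (filterByExpr), scaled by TMM and tested with edgeR 4.0.16 quasi-likelihood in R 4.3.3, two-sided, with Benjamini-Hochberg adjustment over all 16160 tested genes, a threshold of 0.05 and 1 spread over all 15 libraries. The standard error is the fold change divided by the root of F. DESeq2 1.42.0 was an alternative, and the scripts were tested on simulated data. Values by library are given for members called by edgeR in any of these tests and for the 8 highest per kilobase, and for each comparison the 3 highest and 3 lowest members are named. Members, lists and the split of replicate 1 against replicates 2 and 3 were chosen with earlier results of these data known. The adjusted p-values of that split are therefore not those of a comparison fixed in advance. Same-numbered libraries deviated together, with every correlation over 0.1, for M228, M303 and M379 against GFP and for M303 against SOX9_WT, but not for the other 3 pairs of groups. This pairing is a hint from the data, since the labels do not say what the number marks.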

Additional observations from a re-analysis of the deposited data

How the results depend on the processing

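With the replicate number as a block, 1 member was called in M228 against GFP (IFITM2, -0.94) and no other call on members between groups changed. Over all genes the block raised the calls in every group comparison. They went from 39 to 181 in M228 against GFP, from 92 to 319 in M228 against SOX9_WT and from 110 to 332 in the F test. With every gene kept whatever its count, edgeR called 1 member in SOX9_WT against GFP (IFITM2), 3 in M228 against GFP, 1 in M379 against GFP (UBE2L6), 1 in each mutant against SOX9_WT (IFI6) and 3 in the F test. Over all genes this setting called 0.482%, 0.755% and 0.198% in those comparisons with GFP. It called 0.857%, 0.731% and 0.367% in M228, M303 and M379 against SOX9_WT, and 1.6% in the F test. DESeq2 called 1 in M228 against GFP, 1 in M303 against SOX9_WT and 2 in the F test. Of all genes DESeq2 called 0.45%, 0.402% and 0.919% in these. Fitted on the 2 groups compared, M228 and M379 each gave 1 call against SOX9_WT, where 1.85% and 1.03% of all genes were called. Leaving out 1 library gave 0 to 1 calls in M228 against GFP (1 without GFP replicate 3, as 143 of all genes), 0 to 1 in the F test (1 without GFP replicate 2, as 255 of all genes), 8 to 27 for replicate 1 (as 890 to 5359 of all genes), 0 to 13 for its interaction with group (13 without GFP replicate 3, as 3039 of all genes) and 2 to 17 for the other interferon-stimulated genes in replicate 1. Between replicates 2 and 3 edgeR called 0 members and 0 of those other genes, where 0.0619% of all genes were called. Without the 3 GFP libraries 24 and 17 were called in replicate 1, where 29.1% of all genes were called.

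Some uncalled fold changes turned direction, and the cause was not tested. With the replicate block SAMD9L was -0.022 in M303 and -0.11 in M379 against GFP. From replicates 2 and 3 only, MX2 was -0.068 in M228 against GFP and -0.0043 in M303 against SOX9_WT, and OASL was -0.039 in M303 against SOX9_WT. Leaving out 1 library gave, against GFP, -0.048 to 1.09 for IFIT2 in SOX9_WT, -0.23 to 0.75 for MX2 and -0.11 to 0.65 for SAMD9 in M228, -0.027 to 0.775 for OASL and -0.90 to 0.86 for SAMD9L in M303, and -0.0498 to 0.45 for OAS3 in M379. Against SOX9_WT it gave -0.115 to 0.86 for MX2 and -0.21 to 0.78 for HERC5 in M228, and -0.39 to 0.82 for MX2 and -0.16 to 0.65 for OASL in M303. IRF9 in replicate 1 lay between -0.40 and 0.056. IFIT1, IFIT2, IFIT3, MX1, MX2, SAMD9 and UBA7 kept their call in replicate 1 without any 1 of the 15 libraries. So did OAS2, but it passed the filter on low counts only through replicate 1 libraries, so this is no support. Depth limits SAMD9L, OAS2 and IFI44 most, which had 2, 1 and 3 reads in their lowest libraries.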
